A study of Mus musculus with 8 samples.

Results

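Extracellular matrix and contractile genes of the target cells were followed in RNA of CD8 T cells that had been incubated with tumour cells carrying much or little PD-L1. The set holds 43 genes of collagens, laminins, secreted matrix proteins, collagen-processing enzymes, protease inhibitors, actin-binding proteins, IGF-binding proteins, the YAP and TEAD system and surface proteins. Each gene was read on 1 probe set, the one of highest mean among those annotated with that symbol alone, and 40 of the 43 genes had one, of 12393 genes on the array. Of these, 21 had a mean above the filter on low values, a log2 value of 6.87, and were tested among 8003 genes, whereas 19 lay under it. The tested member nearest the filter was Col18a1 with a mean of 7.02, and the member nearest to it from below was Timp3 with 6.86. Fbn1, Ctgf and Cyr61 had no probe set under those symbols.

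The samples were activated CD8 T cells of OT-1 mice, whose CD8 T cells carry a transgenic receptor for an ovalbumin peptide. Each of 4 mice, named A to D, gave T cells for both kinds of target, ID8 cells that overexpress PD-L1 and ID8 cells depleted of it, ID8 being a mouse ovarian cancer line. The targets were loaded with the peptide in both groups, the incubation lasted 4 h at 30 T cells per target cell, and the T cells were then collected by magnetic separation. This gave 4 arrays per group and 1 array for each mouse and target, and the number of arrays limits the precision. The labels used here do not say how PD-L1 was raised or removed, whether a target line was 1 clone, or the age of the mice. Values below are log2 expression as deposited, and a difference is overexpressing minus depleted within a mouse.

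The extracellular matrix is the protein scaffold that cells secrete around themselves. Fibrillar collagens give it tensile strength, type IV collagen and laminins form the sheet-like basement membrane, and secreted proteins such as fibronectin and SPARC link cells to it. Epithelial tumour cells and fibroblasts make these proteins and the actin-binding proteins of stress fibres, and YAP with TEAD factors is known to drive several of the genes.

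The promoters of members that moved together in the values below are shown first, from RefSeq sequences of mouse build GRCm38.p6. A promoter window was found for 31 of the 40 members. The 120 bases directly before the annotated start are given for Sparc (chr11:55420081-55420200, minus strand), Serpinh1 (chr7:99353240-99353359, minus strand), Fstl1 (chr16:37776935-37777054, plus strand) and Bgn (chrX:73483481-73483600, plus strand). They were picked as members with large differences, and capitals mark matches to the motifs searched.
Sparc: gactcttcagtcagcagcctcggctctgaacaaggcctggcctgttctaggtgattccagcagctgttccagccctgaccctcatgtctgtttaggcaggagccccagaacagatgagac
Serpinh1: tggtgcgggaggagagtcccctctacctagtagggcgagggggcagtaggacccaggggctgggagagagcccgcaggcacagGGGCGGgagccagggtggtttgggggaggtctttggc
Fstl1: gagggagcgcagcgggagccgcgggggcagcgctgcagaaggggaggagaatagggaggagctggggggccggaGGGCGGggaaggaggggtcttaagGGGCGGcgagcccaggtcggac
Bgn: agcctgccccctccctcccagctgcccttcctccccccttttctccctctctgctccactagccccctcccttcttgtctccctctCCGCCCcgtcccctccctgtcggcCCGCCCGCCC

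Motifs were searched on both strands in the 250 bases before each start. They were GGAATG, the core of TEAD sites, CCAAT, and the GC box GGGCGG, and no overlap between different motifs was removed. GGAATG was present in 12.6% of all 32851 windows, in 2 of 15 windows of members that had the pattern described below (Cald1 and Tpm1) and in 8 of 20 windows of the other members. CCAAT was present in 33.8% of all windows, in 6 of the 15 and in 5 of the 20. The GC box was present in 32.7% of all windows, in 9 of the 15 and in 15 of the 20. A match is a description of these letters and not of binding.

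Type IV collagen chains 1 and 2 share a promoter, and their annotated starts overlap by 22 bases (chr8:11312805-11312826, plus strand), with Col4a2 read on the plus and Col4a1 on the minus strand. The stretch lies outside the windows searched before these starts. Motifs were not marked with capitals in it, and it holds GGGCGG.
Overlap of the Col4a1 and Col4a2 starts: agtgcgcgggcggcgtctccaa

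The arrays carried strong T cell signal. The mean of 7 CD8 T cell markers lay between 12.45 and 12.60 on all 8 arrays. Cd274, which encodes PD-L1, lay between 9.33 and 10.09 and differed between targets by -0.02, -0.07, -0.14 and 0.05 in mice A to D, so it does not check the target labels of these T cell arrays. The pair of arrays of mouse B stood apart from the other pairs. The mean of 7 tested markers of ID8 cells was 8.36, 7.64, 8.81 and 8.65 in mice A to D with overexpressing targets, and 7.60, 8.76, 8.09 and 7.92 in the same order with depleted targets. It was higher with overexpressing targets in A, C and D and lower in B. An exchange of the target labels between the arrays of mouse B and a response of mouse B opposite to the other mice cannot be told apart with these arrays, and the labels were kept as deposited. An exchange would turn every sign given for mouse B below and would change the fits over 4 mice. The part of the ID8 markers in the results on matrix genes was not tested, and the calls are given with and without mouse B. Mouse B was left out after its values had been seen to run the other way. The standard errors and p-values without it below therefore describe mice A, C and D and are not independent tests. In bulk RNA, fewer cells of a type and less RNA per cell cannot be told apart.

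The first comparison asked which matrix and contractile genes differed in T cell samples between the PD-L1 states of the target. With 4 mice, limma called 0 of the 21 tested members, as it called 0 of all 8003 genes (0%), with an adjusted p of 0.9995 for each member. Only Igfbp5 among the 21 had an unadjusted p under 0.05, as had 228 of the 8003 genes. The members nevertheless differed by more than most genes within single mice. A mean size of the difference of at least 0.5 was reached by 5 of the 21 members and by 48 of 8003 genes (0.6%). The median size of the difference was 0.17 for the 21 members and 0.070 for all tested genes.

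Mice A, C and D ran one way and mouse B the other. The median difference of the 21 members was 0.18, -0.22, 0.30 and 0.15 in mice A to D, and over all tested genes it was 0.0012, 0.028, -0.020 and 0.0049 in the same order. A higher value with overexpressing targets in A, C and D together with a lower one in B was seen for 11 of the 21 members, against 8.97% of all tested genes. Among the 40 members with a probe set 18 had this pattern, of which 7 were among the 19 under the filter, against 3.87% of all genes under it. Members with the pattern had a mean size of difference from 0.16 in Igfbp4 to 1.36 in Cald1, and for members without it the value was at most 0.17. Among the tested members Igfbp5 alone had the same direction in all 4 mice, 1 of 21 members against 10.5% of all tested genes.

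**Figure D1:**
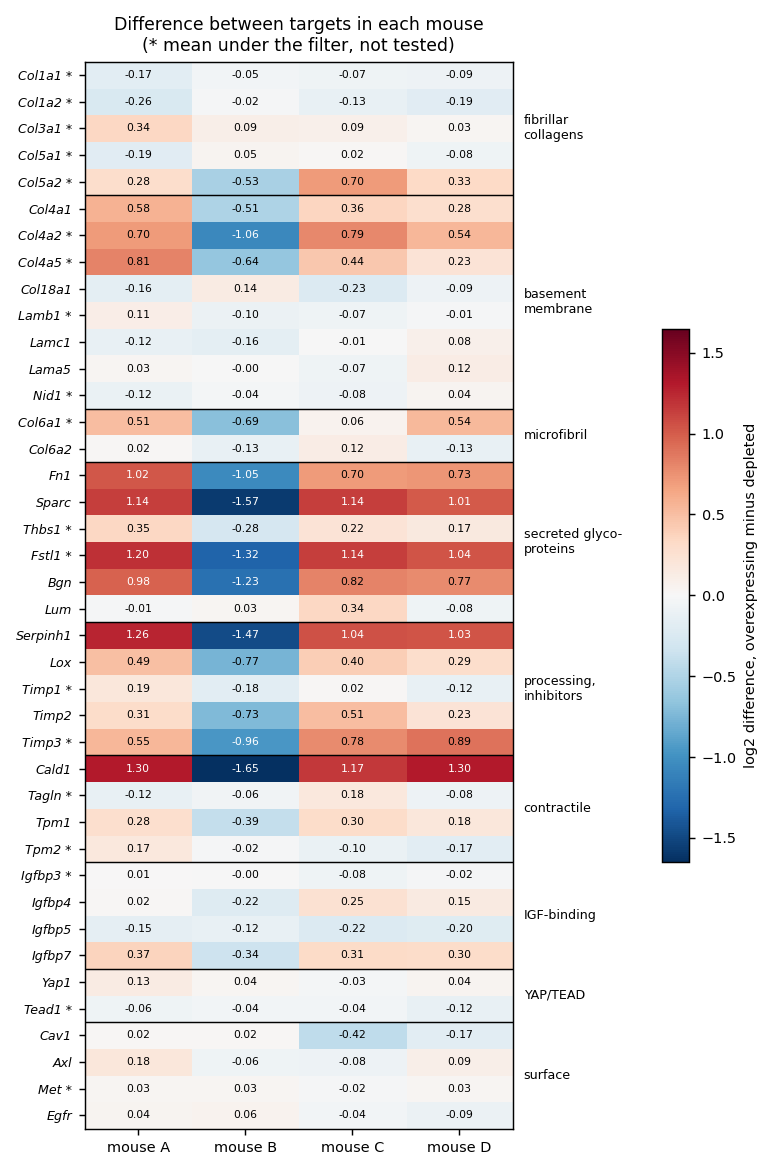
Difference between targets (log2, overexpressing minus depleted, colour scale) for the 40 members with a probe set, by mouse and grouped by role, with asterisks on the 19 under the filter. The secreted glycoproteins and the processing and inhibitor genes are mostly positive in mice A, C and D and negative in mouse B, whereas the type I and type III collagens, Axl, Met and Egfr stay within 0.34 of 0, and Cav1 reaches -0.42 in mouse C.

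Secreted matrix proteins had the largest differences as a group, with a median of 1.0, -1.14, 0.76 and 0.75 in mice A to D over 6 genes, and 5 of the 6 had the pattern. Sparc, a collagen-binding glycoprotein, was 9.51, 8.43, 10.21 and 10.08 in mice A to D with overexpressing targets and 8.37, 10.01, 9.08 and 9.07 with depleted targets. Mouse B was the lowest of the first group and the highest of the second, so the groups overlapped. The difference over 4 mice was 0.43 (SE 0.39, 95% interval -0.44 to 1.30). Without mouse B it was 1.10 (SE 0.044, adjusted p = 1.52e-12), which is 2.14-fold higher. In mouse B Sparc was 2.98-fold lower.

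Fn1 encodes fibronectin, which connects integrins with collagen. It was 8.42, 7.54, 8.97 and 8.90 in mice A to D with overexpressing targets, and 7.39, 8.59, 8.27 and 8.16 with depleted targets. Mouse B again had the lowest value of the first group and the highest of the second, and the groups overlapped. Over 4 mice the difference was 0.35 (SE 0.28), and without mouse B it was 0.82 (SE 0.062, adjusted p = 2.75e-08). A second probe set of Fn1 had a mean of 4.77. It differed by 0.05, 0.07, -0.07 and -0.04 in mice A to D and did not show the pattern.

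Bgn encodes biglycan, a small proteoglycan of the matrix. It was 8.46, 7.50, 8.96 and 8.83 in mice A to D with overexpressing targets, and 7.49, 8.72, 8.14 and 8.06 with depleted targets. The highest value with depleted targets, that of mouse B, exceeded the value of mouse A with overexpressing targets. The difference was 0.34 (SE 0.30) over 4 mice and 0.86 (SE 0.056, adjusted p = 2.70e-09) without mouse B.

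Fstl1, a secreted glycoprotein related to follistatin and SPARC, lay under the filter, and its differences were of similar size to those of Sparc. Its values were 6.65, 5.44, 6.94 and 6.82 in mice A to D with overexpressing targets, and 5.45, 6.76, 5.80 and 5.78 with depleted targets. Thbs1, which encodes thrombospondin, a matrix protein that activates TGF-beta, had smaller differences of 0.35, -0.28, 0.22 and 0.17 in mice A to D. Lum, the proteoglycan lumican, was the member of the group without the pattern, and its difference was 0.071 (SE 0.076, 95% interval -0.10 to 0.24) over 4 mice and 0.084 (SE 0.080) without mouse B.

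Collagen processing genes and protease inhibitors followed, with the pattern in 4 of 5 genes. Serpinh1, the chaperone that collagen chains need in the endoplasmic reticulum, was 8.38, 7.39, 9.01 and 8.91 in mice A to D with overexpressing targets and 7.12, 8.86, 7.96 and 7.88 with depleted targets. Only mouse B had its higher value with depleted targets. Its difference was 0.47 (SE 0.38) over 4 mice and 1.11 (SE 0.058, adjusted p = 1.01e-10) without mouse B, or 2.16-fold, and in mouse B it was 2.77-fold lower.

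Lox encodes lysyl oxidase, which cross-links collagen and elastin. It was 7.12, 6.58, 7.34 and 7.33 in mice A to D with overexpressing targets, and 6.63, 7.34, 6.93 and 7.04 with depleted targets. The 2 groups overlapped because of mouse B, and without it the lowest value with overexpressing targets lay above the highest with depleted ones. The difference without mouse B was 0.40 (SE 0.075, adjusted p = 0.00409), or 1.32-fold. Over 4 mice it was 0.11 (SE 0.18), and it turned to -0.023 when mouse A was left out. Another probe set of Lox, of mean 6.76, had the pattern too. The one of mean 4.77 did not, with 0.302, 0.015, -0.273 and -0.105 in mice A to D.

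Timp2, an inhibitor of matrix metalloproteinases, was 9.61, 9.02, 10.03 and 9.70 in mice A to D with overexpressing targets, and 9.30, 9.75, 9.52 and 9.47 with depleted targets. Without mouse B it was higher by 0.35 (SE 0.049, adjusted p = 0.000170). Over 4 mice the difference was 0.078 (SE 0.16), and -0.065 without mouse C. Size and pattern depended on the probe set. The one with the next highest mean, 8.22, had differences of 1.30, -1.61, 0.96 and 1.01 in mice A to D. Those of mean 8.01 and 6.91 had the pattern too. Those of mean 7.38 and 4.76 did not have it, and the former differed by -0.029, -0.363, 0.143 and 0.088. Timp3, the matrix-bound inhibitor, lay under the filter and differed by 0.55, -0.96, 0.78 and 0.89. Timp1, whose product is a freely secreted inhibitor, differed by 0.19, -0.18, 0.02 and -0.12 and did not have the pattern.

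Collagens were divided. The type IV chains in the set, Col4a1, Col4a2 and Col4a5, had the pattern, and the main fibrillar chains, all under the filter, did not. Type IV chains outside the set did not have it either on the probe sets chosen. Col4a6 differed by 0.032, -0.124, 0.13 and -0.028 in mice A to D, and Col4a3, under the filter, by 0.081, 0.024, -0.141 and -0.123. Col4a1 was 8.02, 7.34, 7.98 and 7.89 in mice A to D with overexpressing targets, and 7.44, 7.85, 7.62 and 7.61 with depleted targets. Mouse B was lowest in the first group and highest in the second. Over 4 mice the difference was 0.17 (SE 0.15), and without mouse B 0.40 (SE 0.067, adjusted p = 0.00109). Col4a2, which shares the promoter region shown above, differed by 0.70, -1.06, 0.79 and 0.54 in mice A to D, and Col4a5 by 0.81, -0.64, 0.44 and 0.23, both with means under the filter. The other probe set of Col4a5, with a mean of 6.24 against 6.58, differed by 1.73, -1.92, 1.24 and 1.58, with the largest mean size, 1.62, of any probe set of the members.

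The 5 fibrillar collagen genes all lay under the filter, and their values are given without a test there. Col1a1, the main chain of type I collagen, differed by -0.17, -0.05, -0.07 and -0.09 in mice A to D. Col1a2, its partner chain, differed by -0.26, -0.02, -0.13 and -0.19, and Col3a1 of type III collagen by 0.34, 0.09, 0.09 and 0.03. None of these changed sign in mouse B on the probe sets chosen, but the signs depended on the probe set. The other one of Col3a1 differed by -0.015, -0.105, -0.043 and -0.157, and that of Col1a2 by -0.023, 0.23, 0.199 and -0.1. Col5a1, a type V chain, differed by at most 0.19 in size in any mouse. Col5a2, a type V chain that helps to start fibrils, was the exception with 0.28, -0.53, 0.70 and 0.33 on its chosen probe set. Its other probe set, of lower mean, differed by -0.413, -0.24, 0.175 and 0.281 and did not have the pattern. Col6a1, a chain of the microfibrils of type VI collagen, had the pattern as well with 0.51, -0.69, 0.06 and 0.54. Its partner Col6a2 did not have it, with 0.02, -0.13, 0.12 and -0.13, and differed by -0.028 (SE 0.062) over 4 mice and 0.0051 (SE 0.066) without mouse B.

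Laminins and the remaining basement membrane genes did not have the pattern on the probe sets chosen. Lama5, which encodes a laminin chain, differed by 0.022 (SE 0.052) over 4 mice and 0.029 (SE 0.058) without mouse B. Lamc1, another laminin chain, differed by -0.053 (SE 0.056) and -0.018 (SE 0.059) in the same fits. Col18a1, the collagen from which endostatin is cut, differed by -0.16, 0.14, -0.23 and -0.09 in mice A to D. These signs are opposite to the pattern, and Col18a1 did not pass, with -0.16 (adjusted p = 0.369) without mouse B. Nid1, which encodes nidogen, a linker of laminin and type IV collagen, differed by at most 0.12 in size. For Lamb1 the chosen probe set lay under the filter and had no pattern, whereas both of its other probe sets had it, with 0.48, -0.15, 0.32 and 0.02 on the one of mean 5.56.

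The actin-binding gene Cald1 had the largest mean size of difference among the probe sets chosen for the members, 1.36. Cald1, which encodes caldesmon, a regulator of actin and myosin in stress fibres, was 9.21, 8.22, 10.02 and 10.01 in mice A to D with overexpressing targets and 7.91, 9.87, 8.86 and 8.71 with depleted targets. The 3 arrays of mice A, C and D with overexpressing targets lay above their partners, and the array of mouse B with depleted targets lay above all others of its group. Over 4 mice the difference was 0.53 (SE 0.42, 95% interval -0.42 to 1.48). Without mouse B it was 1.26 (SE 0.046, 95% interval 1.16 to 1.36, adjusted p = 4.61e-13), or 2.39-fold, and in mouse B Cald1 was 3.14-fold lower.

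Tpm1, a tropomyosin that lies along actin filaments, was 9.49, 9.21, 9.84 and 9.66 in mice A to D with overexpressing targets, and 9.21, 9.60, 9.54 and 9.47 with depleted targets. Its differences were smaller but had the same signs, and without mouse B it was higher by 0.26 (SE 0.043, adjusted p = 0.00125). Over 4 mice its difference was 0.094 (SE 0.10). Another probe set of Tpm1, of mean 9.25, had the pattern too. The one of mean 6.93 did not, with -0.148, -0.188, -0.053 and 0.311 in mice A to D. Tagln and Tpm2, a smooth muscle actin-binding protein and a second tropomyosin, lay under the filter without the pattern. Tagln differed by -0.12, -0.06, 0.18 and -0.08 in mice A to D.

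**Figure D2:**
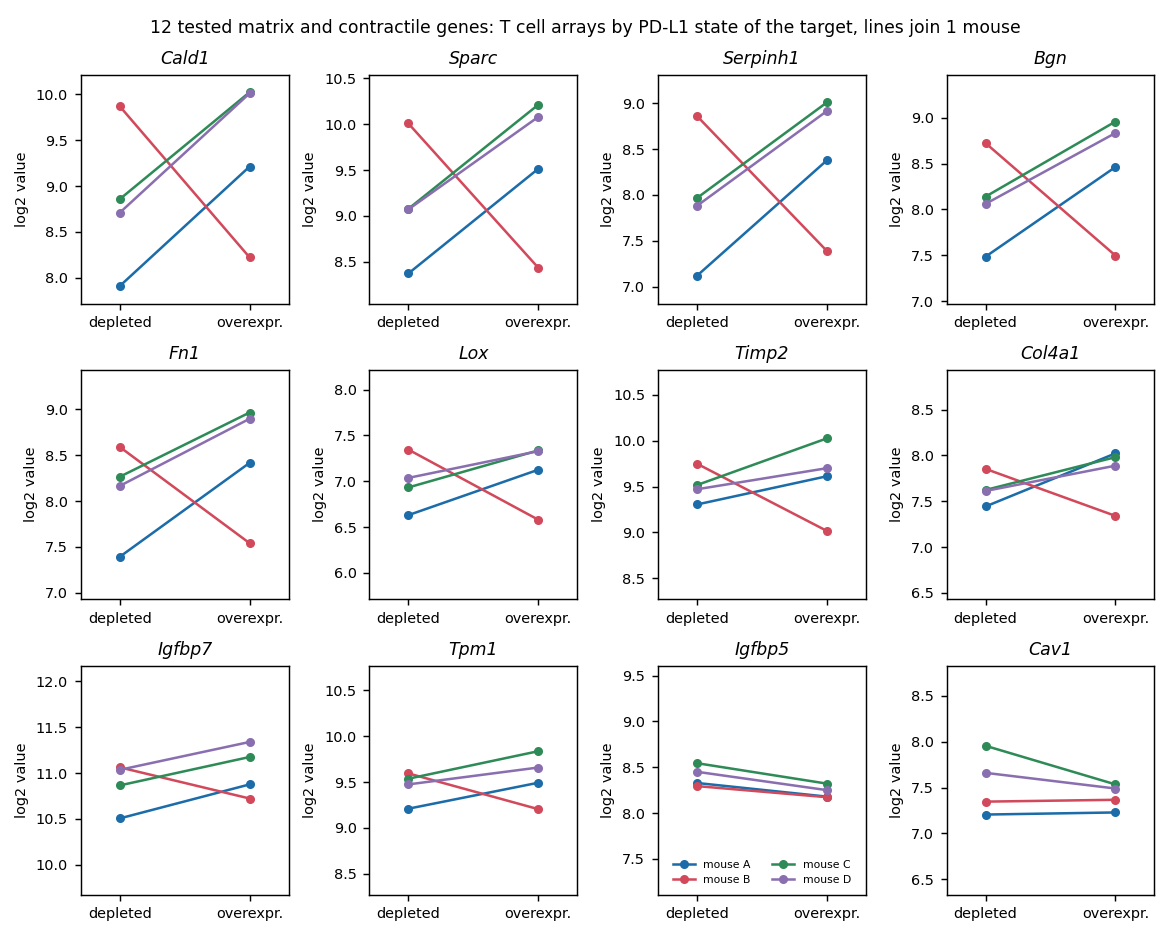
Log2 values of 12 tested members on each array, with depleted targets on the left and overexpressing targets on the right of each panel and lines joining the arrays of 1 mouse. In the panels from Cald1 to Tpm1 the line of mouse B falls while those of A, C and D rise, all 4 lines of Igfbp5 fall, and Cav1 falls in C and D only.

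The IGF-binding proteins, which hold insulin-like growth factors in the matrix and the circulation, were split. Igfbp7 was 10.88, 10.72, 11.18 and 11.34 in mice A to D with overexpressing targets, and 10.51, 11.06, 10.87 and 11.04 with depleted targets. The groups overlapped widely, since mice differed by as much as targets did, but within each of mice A, C and D it was higher with overexpressing targets. The difference was 0.16 (SE 0.10) over 4 mice and 0.33 (SE 0.033, adjusted p = 2.00e-06) without mouse B. On its second probe set (mean 8.86) the differences were -0.31, 0.10, -0.02 and -0.22 in mice A to D, without the pattern.

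Igfbp4 had the pattern with differences of 0.015, -0.22, 0.25 and 0.15 in mice A to D, and did not pass without mouse B (0.14, SE 0.049, adjusted p = 0.203). All 5 of its other probe sets had the pattern too, and the size depended on the probe set. The one with the next highest mean, 9.12, differed by 0.42, -0.43, 0.62 and 0.53.

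Igfbp5 was 8.18, 8.17, 8.32 and 8.25 in mice A to D with overexpressing targets, and 8.33, 8.29, 8.54 and 8.45 with depleted targets. It was lower with overexpressing targets in 4 of 4 mice. The difference of -0.17 (SE 0.045, 95% interval -0.28 to -0.071) did not pass in limma's fit (adjusted p = 0.9995), nor without mouse B (adjusted p = 0.0698). A second probe set of Igfbp5 had a mean of 5.52 and differed by 0.01, 0.57, -0.21 and -0.01. Igfbp3 lay under the filter and differed by at most 0.08 in size.

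Of the YAP and TEAD genes, Yap1 and Tead1 could be read under the rule for members and did not have the pattern, nor did the 4 surface genes. Ctgf and Cyr61, whose probe sets carry the newer symbols Ccn2 and Ccn1, belong to the same group. Ccn2 had the pattern, with differences of 0.90, -1.85, 1.54 and 1.29 in mice A to D and a mean under the filter, and Ccn1 did not. For Yap1, the coactivator held in check by Hippo signalling, the difference was 0.046 (SE 0.041, 95% interval -0.047 to 0.14) over 4 mice and 0.049 (SE 0.047) without mouse B. Tead1, its DNA-binding partner, lay under the filter and differed by -0.06, -0.04, -0.04 and -0.12. Axl, a receptor kinase for GAS6, differed by 0.032 (SE 0.046) over 4 mice and 0.064 (SE 0.042) without mouse B. Egfr, the receptor of epidermal growth factor, differed by -0.0074 (SE 0.044) and -0.029 (SE 0.049) in the same fits. Met, the receptor of hepatocyte growth factor, lay under the filter and differed by at most 0.03 in size. Cav1, the coat protein of caveolae, differed by 0.02, 0.02, -0.42 and -0.17 in mice A to D, and over 4 mice by -0.14 (SE 0.081, adjusted p = 0.9995) or, without mouse B, -0.19 (SE 0.076, adjusted p = 0.293). Over the 11 tested members that did not pass without mouse B, the 95% intervals of the 4-mouse difference lay between -0.32 and 0.24. In the fit without mouse B they reached -0.35 for Cav1 and 0.25 for Lum. These intervals bound the differences and do not show that the values are equal.

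Without mouse B, 10 of the 21 tested members rose with overexpressing targets and 0 fell, while of all 8003 genes 1.9% rose and 0.3% fell. Those that rose were Cald1, Serpinh1, Sparc, Bgn, Fn1, Col4a1, Lox, Timp2, Igfbp7 and Tpm1, from 1.19-fold in Tpm1 to 2.39-fold in Cald1. Leaving out mouse A, C or D in place of B called 0 members. Those fits keep mouse B, whose opposite sign widens the error, so their 0 calls do not back the 10. These counts rest on 3 mice, and mouse B was left out after its values had been seen.

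Without the filter on low values, a combination added after the data were examined, 16 of the 40 members rose when mouse B was left out, against 1.59% of 12393 genes. The 6 further members were Fstl1 (difference 1.13, adjusted p = 1.36e-08), Timp3 (0.74, adjusted p = 7.78e-06), Col4a2 (0.68, adjusted p = 2.98e-05), Col4a5 (0.49, adjusted p = 0.00551), Col5a2 (0.44, adjusted p = 0.00866) and Col6a1 (0.37, adjusted p = 0.0442). The call of Col5a2 holds for its chosen probe set, and its other one did not have the pattern. Thbs1 had a difference of 0.25 and did not pass (adjusted p = 0.130). With 4 mice 0 members were called without the filter as well.

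**Figure D3:**
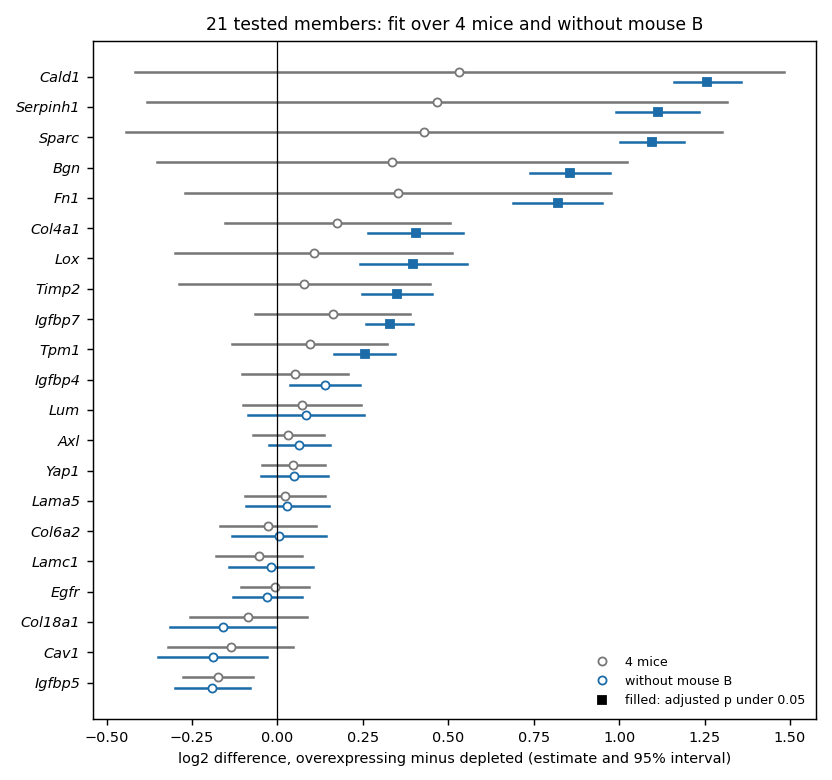
Estimated difference between targets (log2, overexpressing minus depleted) with its 95% interval for the 21 tested members, from limma over 4 mice (grey) and without mouse B (blue), filled where the adjusted p is under 0.05. The 4-mouse intervals cross 0 except that of Igfbp5, and without mouse B, left out after its values had been seen, the upper 10 genes are called.

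The next comparison set the target difference of each mouse against the mean of the other 3, by limma. Each contrast has a single pair of arrays on one side, and its error comes from the spread among the other 3 mice, moderated over genes. Mouse B is described here after its values had been seen. Its target difference departed from the others for 11 of the 21 members, and the difference was lower in B for all 11, against 3.39% of all genes lower and 0.5% higher. The contrast was -2.91 (SE 0.093, adjusted p = 6.57e-14) for Cald1, -2.67 (SE 0.089, adjusted p = 8.30e-14) for Sparc and -2.58 (SE 0.12, adjusted p = 9.60e-12) for Serpinh1. It was -2.08 for Bgn, -1.87 for Fn1, -1.16 for Lox, -1.08 for Timp2, -0.92 for Col4a1, -0.67 for Igfbp7 and -0.65 for Tpm1. Igfbp4, at -0.35, was the member nearest the threshold (adjusted p = 0.0478), and its call was lost without the filter on low values (adjusted p = 0.0640).

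For mice A, C and D the same limma contrast called 0 of 21 members and 0% of all genes. The smallest adjusted p of a member was 0.9998 for A, 0.982 for C and 0.9999 for D, and an unadjusted p under 0.05 was reached by 0, 2 and 0 members and by 224, 222 and 55 of all genes. In these contrasts mouse B is among the others and widens the error, with an SE for Cald1 of 0.93, 1.03 and 0.96 for A, C and D against 0.093 for B, so the counts of 0 do not show that A, C and D were alike. With mouse B left out, 0 of 21 members were called for A, C or D, and the share of all genes was 0.112% for A and 0% for C and D. An unadjusted p under 0.05 was then reached by 3, 4 and 0 members and by 394, 566 and 270 genes. Without the filter mouse B was lower for 16 of 40 members, against 2.56% of all genes, with -2.45 for Fstl1, -1.74 for Col4a2 and -1.70 for Timp3.

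**Figure D4:**
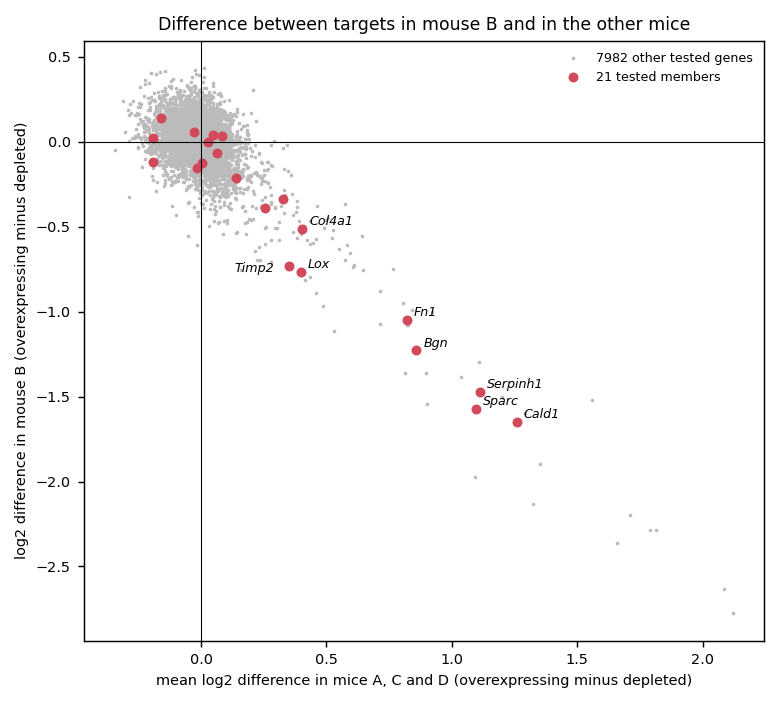
Difference between targets (log2, overexpressing minus depleted) in mouse B against the mean difference of mice A, C and D, for 21 tested members (red) and 7982 other tested genes (grey). Cald1, Sparc, Serpinh1, Bgn and Fn1 lie far to the lower right, positive on the horizontal and negative on the vertical axis, along with a minority of the other genes.

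Levels were also compared between mice. An F test between mice with the target as covariate called 5 of the 21 members (23.8%), against 29.3% of all genes, so the share of members was near the background. The count rested on mouse B: without it the same test called 14 of 21 members, against 44.4% of all genes, and without mouse A it called 3. This test counts a mouse's own target difference as error, so members with the pattern could hardly pass with mouse B included. The 5 called were Yap1, Lum, Lama5, Cav1 and Axl. Yap1 was 9.17, 9.36, 8.95 and 9.35 in mice A to D with overexpressing targets, and 9.03, 9.32, 8.97 and 9.31 with depleted targets (adjusted p = 0.00296). Both arrays of mouse C were the lowest and those of B and D the highest.

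Lum was 7.39, 7.84, 7.26 and 7.29 in mice A to D with overexpressing targets, and 7.41, 7.80, 6.92 and 7.36 with depleted targets (adjusted p = 0.00543). Lama5 was 8.08, 7.69, 8.04 and 8.07 with overexpressing targets and 8.05, 7.69, 8.10 and 7.95 with depleted targets (adjusted p = 0.0112). Mouse B was thus the highest for Lum and the lowest for Lama5 with either target. Cav1 was 7.23, 7.37, 7.54 and 7.49 with overexpressing targets and 7.21, 7.35, 7.96 and 7.66 with depleted targets (adjusted p = 0.0257), lowest in A and highest in C. Axl, with an adjusted p of 0.0259, was highest in mouse A.

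**Figure D5:**
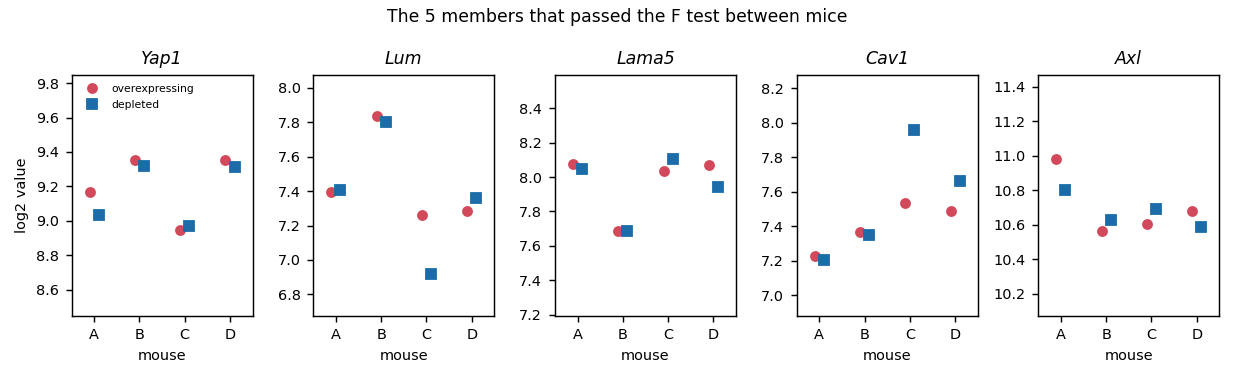
Log2 values of the 5 members called by the F test between mice, by mouse, with overexpressing targets as circles and depleted targets as squares. For Yap1 and Lama5 the arrays of 1 mouse lie close together relative to the spread between mice. Lum does so except in mouse C, where the targets differ by 0.342, and Cav1 of mouse C shows the widest gap between targets.

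The pattern was also read on the probe sets that had not been chosen. The members have 93 probe sets, of which 53 were not chosen. Of 31 further probe sets of members with the pattern, 23 had it too, and of 22 further probe sets of members without it, 3 did. The share over all probe sets not chosen was not computed. On chosen probe sets it was 8.97% of all tested genes and 3.87% of genes under the filter. For Sparc the second probe set differed by 1.38, -1.86, 1.33 and 1.33 in mice A to D, and for Fstl1 by 0.94, -1.29, 1.35 and 1.04. Probe sets of a gene share the arrays and are not replicates.

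A further list of 74 matrix and contractile genes, not part of the set, gave 28 tested genes. It was drawn up by function but with earlier results of these data known, so its counts are not independent evidence. The 4-mouse fit called 0 of them and the fit without mouse B called 6 higher and 0 lower, against 1.9% higher and 0.3% lower of all tested genes. The pattern was seen for 10 of the 28, against 8.97% of all tested genes. Igfbp6, another IGF-binding protein, differed by 1.78, -2.20, 1.68 and 1.67 in mice A to D, and Dcn, the proteoglycan decorin, by 1.64, -1.52, 1.82 and 1.22. Wwtr1, which encodes TAZ, a coactivator related to YAP, differed by 0.78, -1.04, 0.91 and 0.81. The other 3 called were Fbln2, Vcl and Cnn3, which encode a fibulin, vinculin and a calponin.

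Markers of cells that make matrix were read beside the members. Of 7 tested ID8 markers, 5 had the pattern, 4 were called higher without mouse B and 6 were lower in mouse B against the other mice, where the shares of all tested genes were 8.97%, 1.9% and 3.39%. Upk3b, a marker of mesothelium-like cells, had the largest mean size and differed by 1.67, -2.29, 1.89 and 1.82 in mice A to D. Keratin and epithelial markers differed less than Upk3b, and not all had the pattern. Krt18 had it with 0.745, -0.966, 0.244 and 0.467, and Krt19 with 0.245, -0.537, 0.113 and 0.061. Krt8 did not have it, with 0.195, -0.48, -0.018 and 0.137, nor did Epcam, the tested ID8 marker of highest mean, with 0.012, 0.135, -0.251 and 0.025. Of 6 fibroblast markers with a probe set, Dcn and Pdpn had the pattern, against 8.97% of all tested genes and 3.87% of genes under the filter. The mean of the 3 tested ones, Dcn, Pdpn and Thy1, followed it with 9.97, 9.39, 10.22 and 10.14 in mice A to D with overexpressing and 9.33, 10.17, 9.47 and 9.57 with depleted targets. Thy1, which T cells also express, had a mean of 13.26 and differed by at most 0.061 in size. Pdgfra lay at 5.32 or lower, Pdgfrb at 6.50 or lower and Fap at 5.23 or lower on all arrays, and these 3 defining markers were under the filter. Of the 5 endothelial, 5 platelet and 5 macrophage markers with a probe set, 0 had the pattern. Only 1, 2 and 2 of them were tested. With so few markers and the shares of all genes just given, a count of 0 says little about these cell types. Over all markers with a probe set, tested or not, the mean on any array was at most 5.81 for endothelial and 6.50 for platelet markers. It was at most 7.12 for macrophage, 7.86 for fibroblast and 8.13 for ID8 markers on that basis. Over the tested markers alone, the basis of the fibroblast means just given, it was at most 7.38 for endothelial, 7.76 for platelet and 8.25 for macrophage markers. The part of target RNA or of other cells in the members' differences was not tested.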

How the data were processed

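RNA of 8 T cell samples was measured on a 3' expression array of mouse genes. The deposited values are 1 log2 value per probe set and array. They run from 3.60 to 15.24, and this range is the basis for calling the scale log2. How the authors summarised and normalised the probes is not given in the sources used here. When sorted, values of equal rank differed between arrays by at most 0.167, so a shift common to most genes would not be seen. The table held 0 columns of other samples. Of 22626 probe sets other than controls, 20380 had 1 gene symbol, 691 several and 1555 none. Probe sets with several symbols named no gene. The test left out genes whose mean lay below the 40th percentile over these probe sets.

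The members and lists were chosen with earlier results of these data known, so counts over them are not independent evidence. Tests were two-sided moderated tests of limma 3.58.1 (R 4.3.3), with lmFit followed by trended eBayes and p-values adjusted by Benjamini-Hochberg over all 8003 tested genes and a threshold of 0.05. Mouse entered as a fixed block, since the series design states that cells of each mouse were divided and the titles name the mouse. As a check of the pairing, the deviations of a mouse's arrays from the means of their groups were correlated over genes, with 0.82, 0.16, 0.61 and 0.64 for mice A to D. Each mouse's difference was also set against the mean of the other 3. The steps were tested on simulated data. Values on all arrays are given for the 12 tested members with the largest mean size of difference within a mouse, the 4 with the smallest p between targets and the 4 with the smallest p between mice. Fstl1 was added after its values were seen. Of the further matrix list, the 6 genes with the largest differences are named. Alternatives were no block, a random block, other filters, the mean of probe sets, eBayes without a trend, other normalisations and leaving out each mouse. Promoters are from RefSeq (GRCm38.p6). Fbn1 and protein sequences were not analysed here.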

Additional observations from a re-analysis of the deposited data

Results flagged for a closer look

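Members whose target difference in mouse B departed from the mean of mice A, C and D, by a limma contrast, were Cald1 (-2.91), Sparc (-2.67), Serpinh1 (-2.58), Bgn (-2.08) and Fn1 (-1.87), with smaller contrasts for Lox (-1.16), Timp2 (-1.08), Col4a1 (-0.92), Igfbp7 (-0.67), Tpm1 (-0.65) and Igfbp4 (-0.35). All are log2 differences, and all 11 have the same sign.

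A single array stood far from the other 3 of its group for 2 genes. Col5a2 was highest on the array of mouse B with depleted targets, where the gap to the next array was 0.927 of the range of the group. Lama5 was lowest on the array of mouse B with overexpressing targets, with a gap of 0.897 of the range. In all, 82 groups of 4 arrays were examined by Dixon's ratio at its 95% critical value, and chance alone gives about 4.1 such groups.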

How the results depend on the processing

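The number of members called between targets ran from 0 to 10, the upper value without mouse B, and was 16 without mouse B and without the filter, a setting added after the data were examined. The number of all genes called ran from 0 to 176. The number of members that differed between mice, 5 with all mice, ran from 3 to 14 when 1 mouse was left out. With all mice it was 2 with the filter at the 60th percentile and 3 with eBayes without a trend. Members lower in mouse B against the others, 11 with all settings as reported, were 6 with the 60th percentile filter, which tests fewer genes, 8 when all probe sets of a gene were averaged, 16 with no filter, and from 10 to 11 when mouse A, C or D was left out. The difference ran from -0.023 to 0.40 for Lox, -0.065 to 0.35 for Timp2, -0.019 to 0.12 for Lum and -0.012 to 0.051 for Lama5, so the sign of these 4 members turned when 1 mouse was left out. With no block for the mouse, or with the mouse as a random block, 0 members were called between targets. Both settings were run with mouse B included, where the main fit also called 0. They cannot show how the pairing bears on the calls made without mouse B. Of 184 values for 15 named members under alternatives, 170 kept their direction and side of the threshold, 10 passed without mouse B and 4 turned. The cause was not tested. Low values near the filter limit what can be said of fibrillar collagens.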

Other observations

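Ctgf and Cyr61, matricellular genes that YAP and TEAD are known to drive, are on the array under their newer symbols Ccn2 and Ccn1 and so lay outside the rule for members. Ccn2 was 6.56, 5.43, 7.41 and 7.42 in mice A to D with overexpressing targets, and 5.66, 7.28, 5.87 and 6.13 with depleted targets. Its differences of 0.90, -1.85, 1.54 and 1.29 had the signs seen for Sparc and Cald1, and its mean of 6.47 lay under the filter. Ccn1 differed by -0.07, -0.23, 0.28 and 0.15 in mice A to D. Both means lay under the filter on low values.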
